A study of Homo sapiens with 8 samples.

Results

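Some internal exons are found in very few of the transcripts of human cells. The exons described here are those present in at most 5% of transcripts in the DMSO-treated controls of both lines of the series. The inclusion level of an exon is the fraction of transcripts that contain it, computed from the inclusion and skipping junction reads after division by the effective length of each form. An exon event is an exon with its 2 flanking exons. The 56675 events present in the tables of both lines were joined, and an event was kept when each of the 4 control libraries had at least 100 junction reads for it and a level above 0 and at most 0.05. This left 1973 events, which hold 1948 different exons of 1432 genes, out of 35756 joined events with that many control reads and 123924 events in either table. Most genes, 1054 of them, had 1 such event, and the genes with the most were ANXA2 and HDLBP with 9 each and EEF1D with 8.

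The series sequenced polyadenylated RNA of MCF10A, a non-tumorigenic line of breast epithelial origin, and HMLE TWIST, immortalized breast epithelial cells that overexpress TWIST, a transcription factor of the epithelial-mesenchymal transition, from a retroviral pBabe vector. Each line was given the vehicle DMSO (the control) or emetine at 10 µM for 24 h, and each of the 4 groups had 2 libraries that the series describes as biological replicates. The libraries held 78412292 to 91259363 junction reads over the listed events, and the median member had 446 reads in its shallowest control library. Replicate libraries differed by more than sampling noise (mean chi-square per event 2.08 to 2.19). The labelled epithelial origin was checked on junction reads of marker genes: in controls the E-cadherin gene CDH1 had 1362 and 1563 reads in MCF10A but 2 and 0 in HMLE TWIST, and the epithelial splicing factor ESRP1 had 0 and 2 in HMLE TWIST. HMLE TWIST instead had 190386 and 181765 reads of the mesenchymal marker VIM, against 24923 and 28296 in MCF10A. The data hold exon events and no gene levels, so each count is that of the gene's deepest listed event. VIM had 1 listed event in MCF10A and 18 in HMLE TWIST, and CDH1 had 5 and 1. The deepest event may thus differ between the lines, and the counts do not measure gene levels.

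Emetine is a plant alkaloid that binds the small ribosomal subunit and stops translation. Rarely included exons often carry a premature stop codon or shift the reading frame. Such an exon, called a poison exon, marks its transcript for nonsense-mediated decay (NMD), which needs a translating ribosome and acts mainly when the stop codon lies well upstream of the last exon junction. Many splicing factors use poison exons to limit their own amount. An exon can therefore look rare because splicing skips it or because its transcripts are degraded, and junction reads of steady-state RNA cannot tell these apart.

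The sequences below are shown for a feature that most of the strongest responders have, a stop codon soon after the exon begins. An early stop is not particular to them. Among stop-bearing exons, the median first base of the stop was 31.5 for members called higher in both lines (as defined below). It was 33 for members called in neither line and 34 for the other joined events with enough control reads. The first set comes from the 10 exons with the largest rise in both lines and is printed from the first base of the exon through the first in-frame stop codon, which is in capitals. Positions are those of the deposited tables (GRCh37), and the letters come from GENCODE 29 transcripts matched by gene, exon length and both intron lengths.
SAT1 chrX:23802411-23802520 (+ strand): gttacagtctcTAG
SF3B3 chr16:70584553-70584581 (+ strand): gtggctggTGA
SRSF3 chr6:36567598-36568053 (+ strand): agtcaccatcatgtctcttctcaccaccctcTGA
BTBD1 chr15:83697368-83697480 (- strand): gcaaataTAA
SNRNP70 chr19:49605371-49605430 (+ strand): ccaccacgcagctggcttgcagcTGA
COQ5 chr12:120964260-120964349 (- strand): aactccttTAA

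For RUFY1 and SLC20A1 of the same set, no in-frame stop lies inside the exon, but its length of 145 and 59 bases shifts the frame, so both exons are printed whole, with no capitals.
RUFY1 chr5:179013332-179013476 (+ strand): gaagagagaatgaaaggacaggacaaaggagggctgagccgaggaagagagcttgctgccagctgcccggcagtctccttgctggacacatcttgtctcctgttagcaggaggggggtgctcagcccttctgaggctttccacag
SLC20A1 chr2:113410466-113410524 (+ strand): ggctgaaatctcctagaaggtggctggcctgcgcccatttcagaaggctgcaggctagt

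The next 5 exons had the lowest control levels among those called higher in both lines, and again the first in-frame stop is in capitals.
SNRPB chr20:2447838-2447961 (- strand): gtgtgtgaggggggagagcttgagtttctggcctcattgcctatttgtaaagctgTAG
NIPSNAP1 chr22:29960227-29960360 (- strand): gtcattcctggttttggTAG
TM9SF4 chr20:30724680-30724800 (+ strand): gaaggagaaaggagagaactggttctTGA
TRAPPC12 chr2:3460921-3461000 (+ strand): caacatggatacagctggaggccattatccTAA
SRSF4 chr1:29486376-29486570 (- strand): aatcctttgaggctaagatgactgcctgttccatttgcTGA

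Exons whose level under emetine differed between the lines are shown for FKBP14, NARF and POLG, with the stop in capitals, and for PACS1, whose 112 bases shift the frame.
FKBP14 chr7:30059829-30059920 (- strand): tctttTAG
NARF chr17:80436447-80436543 (+ strand): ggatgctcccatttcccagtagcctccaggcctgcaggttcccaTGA
POLG chr15:89875449-89875605 (- strand): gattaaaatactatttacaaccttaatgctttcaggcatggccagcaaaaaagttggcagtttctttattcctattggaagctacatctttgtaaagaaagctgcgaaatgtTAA
PACS1 chr11:65984977-65985088 (+ strand): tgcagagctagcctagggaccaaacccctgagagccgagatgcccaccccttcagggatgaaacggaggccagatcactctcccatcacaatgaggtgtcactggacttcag

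As a contrast, 2 exons keep the frame, hold no in-frame stop and were still called higher in both lines.
SAP30BP chr17:73686751-73686852 (+ strand): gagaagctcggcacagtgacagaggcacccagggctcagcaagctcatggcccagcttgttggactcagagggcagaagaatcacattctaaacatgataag
RANBP3 chr19:5951404-5951607 (- strand): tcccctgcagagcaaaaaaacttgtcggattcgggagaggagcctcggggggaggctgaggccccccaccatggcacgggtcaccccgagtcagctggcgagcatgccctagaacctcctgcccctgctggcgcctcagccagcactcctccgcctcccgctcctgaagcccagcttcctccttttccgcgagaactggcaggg

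Under emetine, most of the rare exons had a higher inclusion level in both lines. The median level in the 2 MCF10A control libraries was 0.00879 and 0.00811, and it was 0.0245 and 0.0238 in the emetine libraries. In HMLE TWIST it was 0.00875 and 0.00834 in controls and 0.0187 and 0.0165 under emetine. Both emetine libraries lay above both controls for 1341 events in MCF10A (68.0% of all members, against 33.3% of all joined events tested). In HMLE TWIST this held for 1169 (59.2%, against 29.1%). The median change was 0.0121 in MCF10A and 0.00699 in HMLE TWIST, while over all events tested it was -0.000168 and -0.00315. The members were chosen by their levels in the 4 control libraries, so the rule used this contrast and the changes are a description. In bulk RNA, more cells that include an exon and more inclusion within each cell cannot be told apart.

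An event was called when the Benjamini-Hochberg adjusted p of a quasi-binomial model fitted to all events of a line was under 0.05 and the level changed by at least 0.1. In MCF10A 219 members in 201 genes were called higher, or 11.1%, where 8.16% of all tested events were. In HMLE TWIST 147 members in 133 genes were called higher, or 7.45%, where 6.46% of all tested events were. The rule caps the control level at 0.05, so a fall of 0.1 could not occur and 0 members were called lower in either line (5.29% and 8.15% of all tested events were). By the adjusted p alone, 1019 members were higher and 22 lower in MCF10A (17.5% and 16.9% of all tested events), and 831 were higher and 73 lower in HMLE TWIST (14.7% and 23.1%). The fits left out 76 members in MCF10A and 110 in HMLE TWIST for too few reads, nearly always of the rarer form.

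Rises were mostly moderate, and few rare exons became major forms. The members called higher in MCF10A had a median level of 0.0174 in controls and 0.181 under emetine, and those in HMLE TWIST 0.0170 and 0.177. Levels above 0.2 in both emetine libraries were reached by 68 members in MCF10A and 38 in HMLE TWIST, and levels above 0.5 by 3 and 1. Among members with a mean control level up to 0.005, 3.27% were called higher in MCF10A and 1.63% in HMLE TWIST. Among those from 0.03 up, the shares were 20.5% and 18.1%. A call needs the same change of level at every control level, which is a larger ratio where the control level is lower. The size threshold thus builds in part of this gradient, and whether the response depends on the control level was not tested. The rise came with more reads of the included form: as a share of the library's junction reads, inclusion reads of the called members rose by a median log2 ratio of 3.66 in MCF10A and 3.88 in HMLE TWIST. Skipping reads of the same members had median log2 ratios of -0.26 and 0.03.

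**Figure D1:**
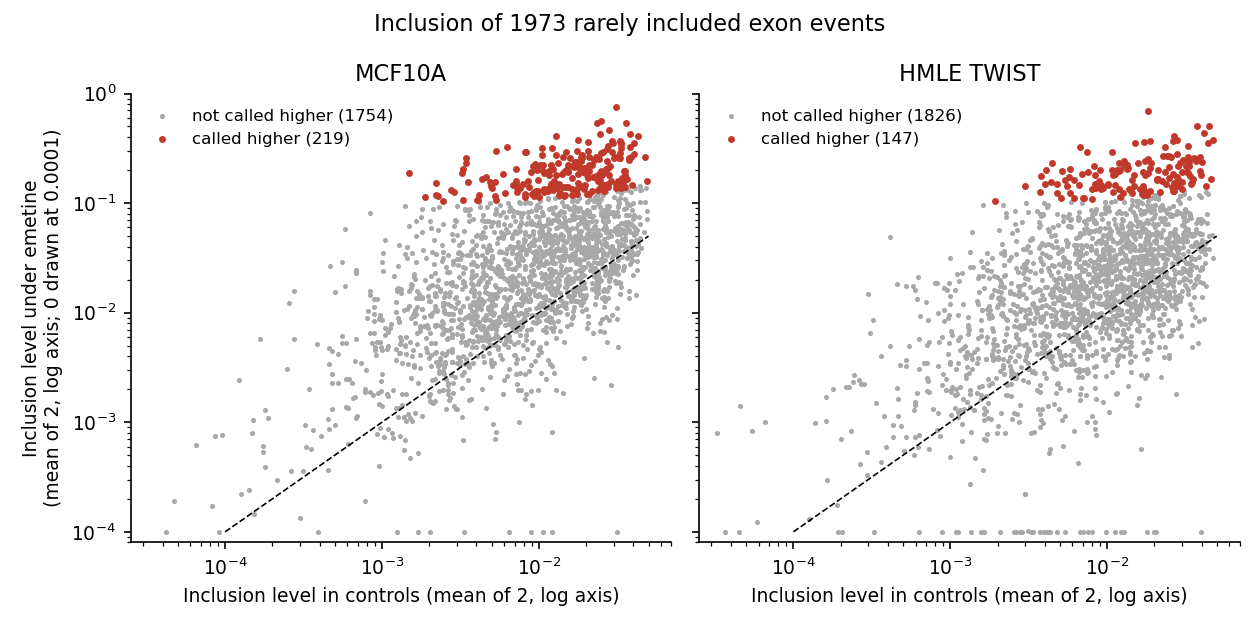
Mean inclusion level under emetine against the mean in controls for the 1973 events, on log axes, in MCF10A (left) and HMLE TWIST (right); each point is an event, the dashed line marks equal levels, and red points were called higher. Most points lie above the line in both lines, and the 219 and 147 red points reach from about 0.1 up to the SAT1 exon at 0.753 and 0.687.

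The largest rise in both lines was in SAT1, the acetyltransferase that starts polyamine breakdown. Its 110-base exon stood at 0.0335 and 0.0282 in the MCF10A control libraries and at 0.763 and 0.743 under emetine, and at 0.0258 and 0.0108 in those of HMLE TWIST and 0.729 and 0.645 under emetine. The exon thus went from a rare to the major form, 24.4 times its control mean in MCF10A and 37.6 times in HMLE TWIST, with no overlap of the groups. Its stop codon is the TAG at base 12, and GENCODE lists the exon in a noncoding processed transcript. SAT1 held 1 of the 2 member events of the polyamine list, and the other was not called.

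SRSF3, a serine- and arginine-rich (SR) splicing factor, had a 456-base exon at 0.0232 and 0.0238 in the MCF10A control libraries and 0.589 and 0.478 under emetine. In HMLE TWIST the same exon was at 0.0329 and 0.0413 in controls and 0.538 and 0.475 under emetine. Under emetine its mean was 22.7 times the control mean in MCF10A and 13.7 times in HMLE TWIST, and no libraries overlapped. The SR and TRA2 list counted 10 member events in 4 genes, with median changes of 0.107 and 0.106. Of these events 5 were called higher in MCF10A, 5 in HMLE TWIST and 4 in both. Among all members 11.1% were called higher in MCF10A and 7.45% in HMLE TWIST, the shares to set beside this and the later lists. SRSF7 rose in MCF10A from 0.0271 and 0.0386 to 0.321 and 0.258 and in HMLE TWIST from 0.0233 and 0.0323 to 0.419 and 0.331. SRSF4 had 3 events in the set, 2 of them called: the 136-base exon at chr1:29495015-29495150 went from means of 0.0128 to 0.412 in MCF10A, and in HMLE TWIST from 0.0107 to 0.293, and the 195-base exon from 0.00458 to 0.174 and from 0.00541 to 0.161 (SDs up to 0.00947, n = 2). The 3 SR genes rose to different heights, but every SRSF3, SRSF4 and SRSF7 library named here was above its own controls.

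Core spliceosome genes made up 27 member events in 18 genes, with 9 called in MCF10A, 9 in HMLE TWIST and 8 in both. The largest rise was in SF3B3, a subunit of the U2 snRNP complex that recognizes the branch point. Its exon of 29 bases was at 0.0253 and 0.0246 in the MCF10A control libraries and 0.567 and 0.551 under emetine, and at 0.0214 and 0.0161 in those of HMLE TWIST and 0.394 and 0.345 under emetine. Control and emetine libraries did not overlap in either line. The emetine level in HMLE TWIST minus that in MCF10A was -0.189, with an adjusted p of 7.21e-42 in the quasi-binomial model and of 0.162 with limma, so this difference was called by the first only. SNRNP70, a protein of the U1 snRNP, had 3 overlapping exons that share a start and differ in their end, all called in both lines. The 60-base form rose in MCF10A from 0.0210 and 0.0199 to 0.412 and 0.315 and in HMLE TWIST from 0.00716 and 0.00620 to 0.353 and 0.292. Since the 3 forms share the upstream junction, their reads are not independent. USP39, a protein of the tri-snRNP, rose in MCF10A from 0.0257 to 0.295 and in HMLE TWIST from 0.0301 to 0.193 (SDs up to 0.0146, n = 2).

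Other RNA-binding proteins had members in more genes, and their counts are set against 11.1% and 7.45% of all members called in MCF10A and HMLE TWIST. Among hnRNP genes 11 events in 5 genes were members, with 4 called in MCF10A, 4 in HMLE TWIST and 3 in both. HNRNPC had 2 exons with no coding frame across them, at means of 0.0154 and 0.223 (163 bases) and of 0.00435 and 0.167 (168 bases) in MCF10A controls and emetine libraries. Their HMLE TWIST means were 0.0217 and 0.127, and 0.00555 and 0.0753, so the second did not reach the size threshold there (SDs up to 0.0346, n = 2). HNRNPD and HNRNPLL each had an exon called in both lines, with rises of 0.190 and 0.210 in MCF10A and 0.101 and 0.145 in HMLE TWIST. Of 32 events in other splicing regulators, 7 were called in MCF10A, 3 in HMLE TWIST and the same 3 in both: FUBP3 (rises of 0.241 and 0.224), RBM4 (0.168 and 0.106) and SON (0.125 and 0.125). NMD and exon junction complex genes had 4 members, of which ACIN1 and MAGOHB were called in MCF10A, with rises of 0.106 and 0.125, and 0 in HMLE TWIST, where these changed by 0.0386 and 0.0717.

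Genes of the translation machinery held no called member, where 11.1% and 7.45% of all members were called in MCF10A and HMLE TWIST. Cytosolic ribosomal protein genes held 28 member events in 21 genes and translation factor genes 28 in 14 genes, and in both lists 0 were called in either line, by the quasi-binomial model and by limma. At an unadjusted quasi-binomial p under 0.05, 15 ribosomal protein events and 16 translation factor events were higher in MCF10A, and 11 and 13 in HMLE TWIST. By the adjusted p alone, with no size threshold, 12 and 14 of the 28 in each list were higher in MCF10A, near the 51.6% of all members. Their median changes were 0.000551 and 0.00290 in MCF10A and 0.000357 and 0.00186 in HMLE TWIST, below the medians over all members given above. By depth, the exons with the most control reads that were called in neither line were in S100A2, RPS18, PPIA and RPL8. RPL8, a large-subunit ribosomal protein, had an exon at 0.00103 and 0.00122 in the MCF10A control libraries and 0.00708 and 0.00739 under emetine, and at 0.000320 and 0.000293 in those of HMLE TWIST and 0.00687 and 0.00629 under emetine. Its level under emetine stayed below 0.01, yet it was 6.44 and 21.4 times that of the controls. Each library had at least 32514 reads for RPL8, nearly all of the skipping form. The RPL8 control levels rest on 88 and 109 inclusion reads in MCF10A and 25 and 24 in HMLE TWIST. PPIA, the prolyl isomerase cyclophilin A, had a 67-base exon that went from a mean of 0.00685 to 0.0387 in MCF10A, and in HMLE TWIST from 0.0136 to 0.0612 (SDs up to 0.00255, n = 2). The RPL8 and PPIA exons had adjusted p-values under 0.05 in both lines by the quasi-binomial model and by limma, with changes below 0.1. The exon of S100A2, a calcium-binding protein, was at 0.0421 and 0.0432 in the MCF10A control libraries and lower under emetine, at 0.0359 and 0.0351.

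Outside those lists, 6 more genes belonged to the 10 largest shared rises. RUFY1, an endosomal trafficking protein, rose in MCF10A from 0.0270 and 0.0220 to 0.424 and 0.430 and in HMLE TWIST from 0.0274 and 0.0259 to 0.434 and 0.379. SLC20A1, a sodium-phosphate cotransporter, rose from 0.0429 and 0.0335 to 0.413 and 0.449 and from 0.0449 and 0.0441 to 0.542 and 0.466. Under emetine the mean levels in HMLE TWIST minus those in MCF10A were -0.0201 for RUFY1 and 0.0729 for SLC20A1, and neither difference was called. SLC20A1 missed the size threshold only, with a quasi-binomial adjusted p of 0.00271 (limma adjusted p 0.533). BTBD1, a substrate adaptor of ubiquitin ligases, went in MCF10A from 0.0279 to 0.466 and in HMLE TWIST from 0.0150 to 0.351 (means of 2, with SDs up to 0.0456 in this and the next 3 genes). PRKRA, which activates the kinase PKR, went from 0.0121 to 0.316 and from 0.0171 to 0.361. TMEM183A went from 0.0428 to 0.413 and from 0.0264 to 0.370, and COQ5, a methyltransferase of coenzyme Q synthesis, from 0.0333 to 0.354 and from 0.0234 to 0.327. For BTBD1, PRKRA, TMEM183A and COQ5 as well, both emetine libraries lay above both controls in each line. Among these, only BTBD1 had a called difference between the lines under emetine, HMLE TWIST minus MCF10A, of -0.114. Its quasi-binomial adjusted p was 5.76e-05 and its limma adjusted p 0.315.

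**Figure D2:**
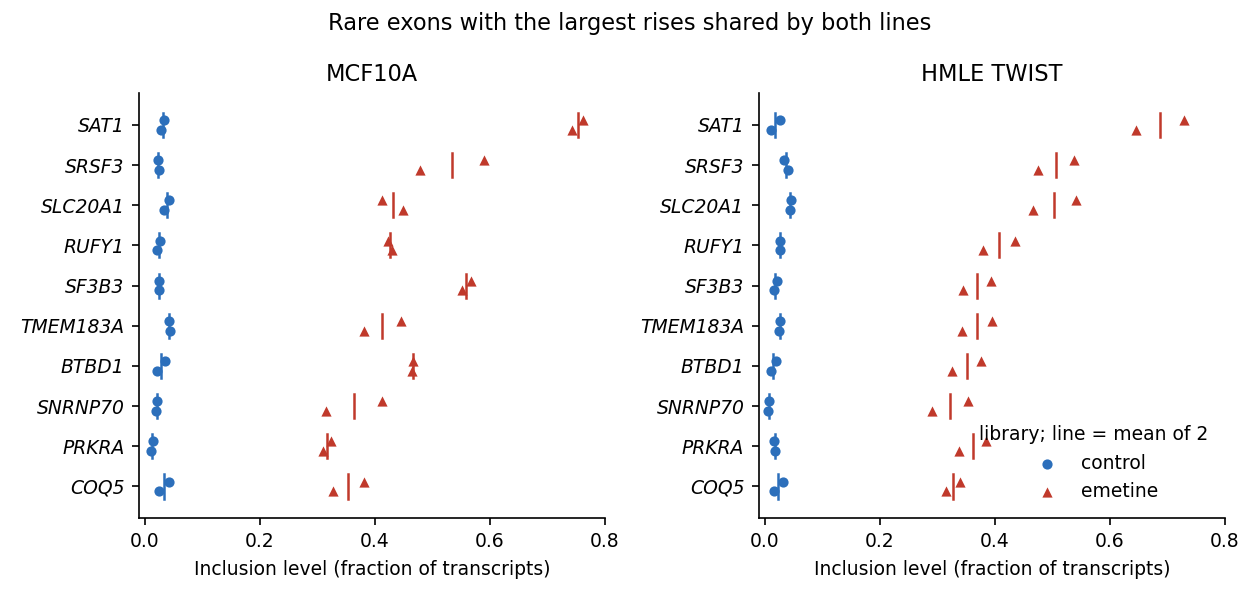
Inclusion level of the 10 exons with the largest rises shared by both lines, in each library (blue circles, controls; red triangles, emetine; vertical strokes, means of 2), in MCF10A (left) and HMLE TWIST (right). Control libraries sit below 0.05 for each of the 10 exons, and emetine libraries sit between about 0.29 for SNRNP70 and 0.763 for SAT1.

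Some exons were almost absent in the controls and still rose in both lines. SNRPB, which encodes the core Sm protein B, had an exon at 0.00362 and 0.00293 in the MCF10A control libraries and 0.123 and 0.0923 under emetine, and at 0.00605 and 0.00772 in those of HMLE TWIST and 0.207 and 0.162 under emetine. TRAPPC12, a subunit of a vesicle-tethering complex, had one at 0.00520 and 0.00163 in the MCF10A control libraries and 0.245 and 0.223 under emetine. Its HMLE TWIST levels were 0.00191 and 0.00193 in controls and 0.131 and 0.0762 under emetine. The TRAPPC12 control levels rest on 3 and 1 inclusion reads in MCF10A and 1 and 1 in HMLE TWIST, against 66 and 62 and 54 and 46 under emetine, so no ratio is given. TM9SF4, a multi-pass membrane protein, rose by 0.101 and 0.105 and NIPSNAP1, a mitochondrial protein, by 0.137 and 0.123.

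Nearly all exons called higher in both lines broke the reading frame: of 106 whose frame could be read, 82 held an in-frame stop, 22 shifted the frame and 2 kept it. Of the 1948 exons, 1821 (93.5%) matched an exon in GENCODE transcripts, and for 1522 the frame of a coding transcript that skips the exon could be read through it. An in-frame stop lay in 970 of them, 254 shifted the frame without a stop inside, and 298 kept the frame. The stop-bearing exons were called higher in 14.8% of cases in MCF10A and 10.0% in HMLE TWIST, and the frame-shifting ones in 15.4% and 9.84%. The frame-keeping ones were called in 2.01% (6 exons) and 1.34% (4 exons). Median control levels of the 3 classes were 0.00816, 0.00865 and 0.00923 in MCF10A. These shares were not tested, since exons are not replicates of a condition.

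The distance from the stop to the last exon junction split the stop-bearing and frame-shifting exons further. Where the first stop lay at least 50 bases before the last junction, 173 of 1030 exons (16.8%) were called higher in MCF10A and 116 (11.3%) in HMLE TWIST. Where it lay nearer or past that junction, 0 of 113 were called in MCF10A (0 also by limma) and 1 (0.885%) in HMLE TWIST. At an unadjusted quasi-binomial p under 0.05, 44 of these 113 were higher and 5 lower in MCF10A, with changes of at most 0.0948. The 2 groups had median MCF10A control levels of 0.00821 and 0.00821 and median control reads, summed over 4 libraries, of 2252 and 4302, so the second was the deeper. The median change was 0.0209 against 0.00473 in MCF10A and 0.0143 against 0.000967 in HMLE TWIST. The 1 exception is the exon of SMARCE1, a subunit of the BAF chromatin remodelling complex, named here because it was the only one. Its mean level was 0.0339 in controls and 0.177 under emetine in HMLE TWIST, and 0.0441 and 0.131 in MCF10A, where the change was under the size threshold (SDs up to 0.0142, n = 2), with its stop 14 bases before the last junction. For the other 81 stop-bearing or frame-shifting exons the distance could not be determined, and 10 (12.3%) of them were called in MCF10A and 5 (6.17%) in HMLE TWIST. Of the 127 exons with no matching exon, 11 (8.66%) and 9 (7.09%) were called.

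**Figure D3:**
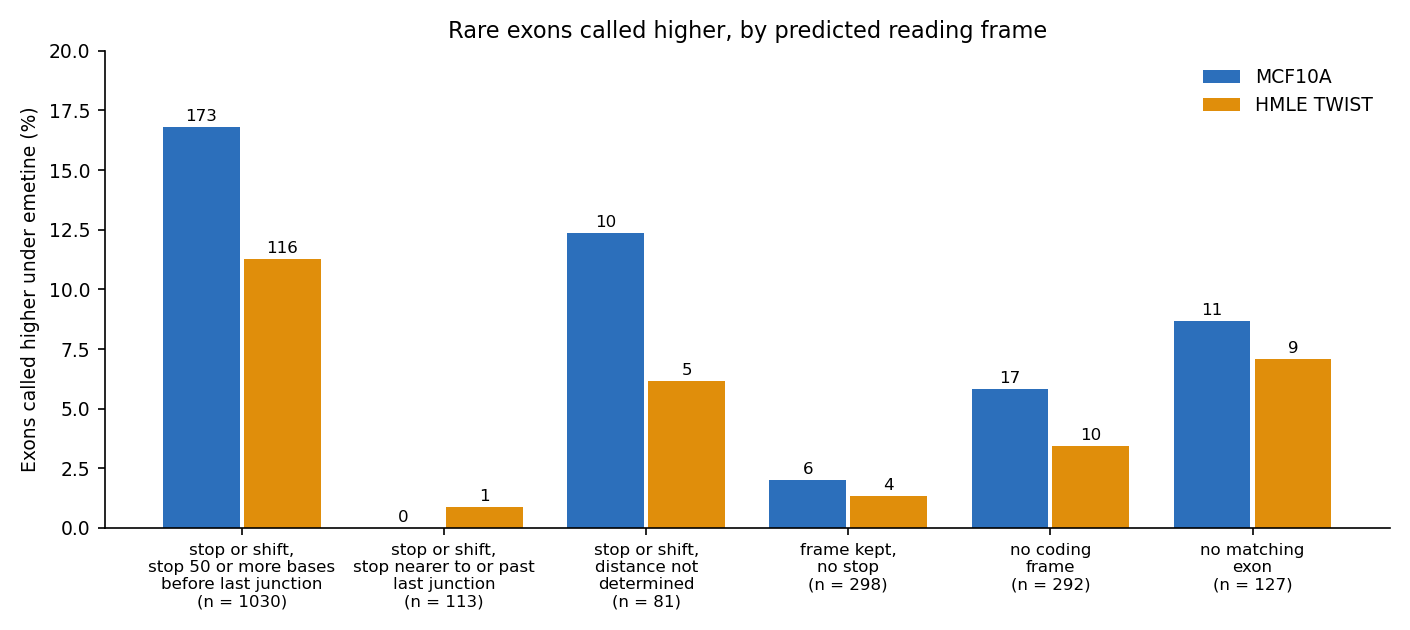
Percent of exons called higher under emetine in MCF10A (blue) and HMLE TWIST (orange), by the reading frame that the exon gives; numbers above the bars are exons called, and n is the number of exons in the class. The class with a stop at least 50 bases before the last junction reaches 16.8% and 11.3%, that with an undetermined distance 12.3% and 6.17%, unmatched exons 8.66% and 7.09%, and the remaining 3 classes lie at 5.82% or below; 7 exons with an ambiguous frame are not drawn.

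Transcript annotation was also set beside the calls, but it overlaps the stop classes above and is no independent check. Of the 1030 exons with the first stop at least 50 bases before the last junction, 618 lay in an NMD transcript. Of the 113 with a nearer stop, 6 did. The 2 sets below share exons, since 669 of the 712 lay in no protein-coding transcript. Of 712 exons that GENCODE places in an NMD transcript, 125 were called in MCF10A and 90 in HMLE TWIST (17.6% and 12.6%), and of 788 in a protein-coding transcript, 34 and 19 were (4.31% and 2.41%). Exons called in both lines lay in an NMD transcript and in no protein-coding one in 59.1% of matched cases, against 33.4% of members called in neither line and 6.94% of the other deep joined events. The median length was 116 bases for exons called in both lines and 107 for those called in neither. Multiples of 3 made up 22.7% of the first and 40.7% of the second. The series is about RNA G-quadruplexes, so runs of 2 G were searched in the exons on the sense strand (4 runs of GG with 1 to 7 bases between them). The pattern lay in 22.6% of exons called in both lines, 17.7% of those called in neither and 21.5% of the other deep joined events. A match is a pattern of letters and says nothing about folding.

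Among the few frame-keeping exons that were called, 2 were called in both lines. The exon of SAP30BP, a binding partner of the SAP30 corepressor subunit, rose by 0.191 in each line, from 0.0122 in MCF10A and 0.00902 in HMLE TWIST. The exon of RANBP3, a nuclear export cofactor, went from 0.0245 to 0.161 and from 0.0255 to 0.266 (SDs up to 0.0429, n = 2). TBC1D1, MAP4, CBR4 and SLC41A3 were called in MCF10A and DGUOK and ZFYVE21 in HMLE TWIST. MAP4, a microtubule-associated protein, had the longest of these exons, 3384 bases, at 0.0168 in the controls and 0.214 under emetine in MCF10A. The response of its exon was 0.0614 in HMLE TWIST.

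Members called in one line were mostly higher in the other line as well. Of the 247 members called in either line, 119 were called in both, 100 in MCF10A alone and 28 in HMLE TWIST alone. The 119 made up 6.56% of the 1815 members tested in both lines, where 4.8% of all events tested in both were called in both. All 100 of the first kind had a higher mean under emetine in HMLE TWIST, 85 of them by the adjusted p, with a median change of 0.0562. All 28 of the second kind were higher by the adjusted p in MCF10A, with a median of 0.0756. Where both were called, the rise was larger in MCF10A for 81 and in HMLE TWIST for 38, with medians of 0.2 and 0.167. The line by treatment term compares the 2 responses as ratios of odds, not as differences of level, and a call also needed level changes that differed by at least 0.1. It was called for 9 of the 100 and 1 of the 28. Over all 1962 members tested it was more negative in HMLE TWIST for 14 and more positive for 1, where 1.28% and 0.606% of all tested events were. By level alone, with no test, the change was at least 0.1 smaller in HMLE TWIST for 54 members and at least 0.1 larger for 10, so a missing call does not show that 2 changes of level were alike.

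**Figure D4:**
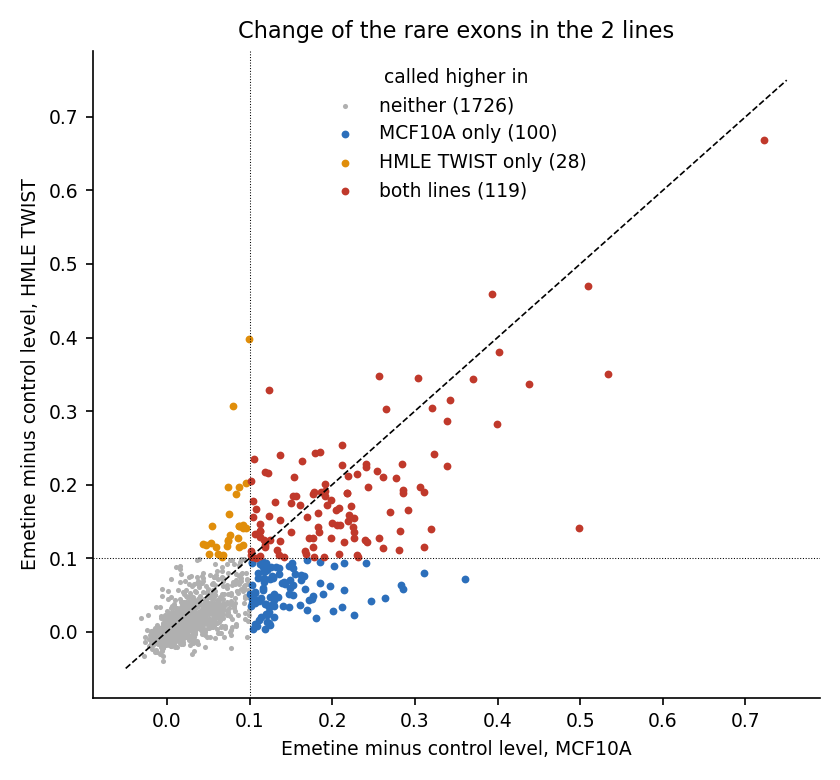
Emetine minus control level in HMLE TWIST against MCF10A for the 1973 events, coloured by the line in which the event was called higher; the dashed line marks equal change and the dotted lines the threshold of 0.1. The points called in 1 line alone continue the cloud of those called in both, and SAT1 stands at the upper right with changes of 0.722 and 0.669.

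The level under emetine in the 2 lines was then compared without the control libraries, which chose the members. Of 1867 members tested, 58 were lower (3.11%, where 7.52% of all tested events were) and 10 higher (0.536%, against 1.84%) in HMLE TWIST than in MCF10A. By limma on the log2 odds, 0 were called and the smallest adjusted p over all events was 0.0609. Unadjusted limma p-values were under 0.05 for 57 of these 68 members and for 7901 of all events. The 58 and 10 calls thus came from the quasi-binomial model, and with 2 libraries a group limma did not pass them. In that model the count was 68 with the moderated dispersion of each event. It was 64 with the larger of own and shared dispersion. Why limma differed was not tested.

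FKBP14, a prolyl isomerase of the endoplasmic reticulum, differed most. Its exon was at 0.532 and 0.538 in MCF10A under emetine and at 0.161 and 0.125 in HMLE TWIST, a difference of -0.39 (quasi-binomial adjusted p 1.26e-13, limma adjusted p 0.0697). The controls were at 0.0488 and 0.0231 in MCF10A and at 0.00429 and 0.00166 in HMLE TWIST, so HMLE TWIST was lower there too. These control levels rest on only 24 and 11 inclusion reads in MCF10A and 3 and 1 in HMLE TWIST. Only 102 reads lay behind the shallowest FKBP14 library.

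The DNA repair list held 9 members, of which 2 were called in MCF10A and 0 in HMLE TWIST. Over all members the shares called were 11.1% and 7.45%, and with 9 members these counts do not stand apart from them. Among them CHEK2, the checkpoint kinase, was called in MCF10A, with a rise of 0.129 there and 0.0348 in HMLE TWIST.

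PACS1, a sorting protein of the trans-Golgi network, was at 0.299 and 0.301 in MCF10A under emetine and 0.0805 and 0.0535 in HMLE TWIST. DDX17, an RNA helicase, was at 0.395 and 0.248 and at 0.109 and 0.0686, so its MCF10A replicates were far apart. NARF, which binds prelamin A, was at 0.361 and 0.265 and at 0.0676 and 0.0784. In PACS1, DDX17 and NARF the lowest MCF10A library exceeded the highest of HMLE TWIST.

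In the other direction, POLG, the mitochondrial DNA polymerase, was at 0.109 and 0.128 in MCF10A under emetine and 0.274 and 0.232 in HMLE TWIST (difference 0.134, quasi-binomial adjusted p 0.000283, limma adjusted p 0.133). DGUOK, the mitochondrial deoxyguanosine kinase, was at 0.109 and 0.129 and at 0.249 and 0.221. Both POLG and DGUOK were higher in HMLE TWIST in each library. The remaining 3 of the 5 largest were 2 exons listed for DECR2 and 1 for NME4, neighbouring genes on chromosome 16, which share the start at 456685 and so count the same upstream junction reads. The 268-base DECR2 exon was at 0.108 and 0.115 in MCF10A under emetine and 0.465 and 0.414 in HMLE TWIST. Which gene these reads belong to is uncertain.

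BIRC5, which encodes the apoptosis inhibitor survivin, was the 1 called exon event among 8 in cell death genes. That is near the 11.1% and 7.45% of all members called in MCF10A and HMLE TWIST. It rose in MCF10A from 0.00887 and 0.0124 to 0.235 and 0.214 and in HMLE TWIST from 0.0129 and 0.0146 to 0.144 and 0.127. All 4 BIRC5 emetine libraries were above all 4 controls.

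The 5% limit on the control level has neighbours on both sides that differ little. The 5 members just inside it had highest control levels of 0.0494 to 0.0499. Among them UBE2D2 rose in MCF10A by mean level from 0.0486 to 0.159. Its HMLE TWIST means were 0.0382 without and 0.118 with emetine. The other 4 (CNN2, CNOT1, METTL22 and PQLC1) had emetine means of 0.0136 to 0.0711 in MCF10A and 0.0175 to 0.0282 in HMLE TWIST. The 5 exons just outside it had highest control levels of 0.0501 to 0.0502. Among them FKBP10 went from 0.0425 to 0.145 and from 0.0361 to 0.0579, and GTF2H1, KDM4A, CAD and HDLBP had emetine means of 0.00506 to 0.0649 and 0.00340 to 0.0387. The label was also checked on other events of the same exons: 32 member exons also occur in another deep event that is not a member, and 3 of them had a level above 0.5 in both lines there, so that they are rare in 1 flanking context. Of these 3, 0 were called higher in both lines.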

How the data were processed

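Polyadenylated RNA of 2 lines, each with DMSO or emetine, was sequenced from stranded paired-end libraries, per the labels' protocols. The authors deposited 1 rMATS table of skipped exons per line, with inclusion and skipping junction counts, effective lengths, inclusion levels as fractions, p-values and FDR, and the level difference as a score, per the file headers. STAR 2.5.3a and GRCh37 are named in the submitters' processing notes. The rMATS version and annotation release are not given in the sources used here.

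Levels were recomputed from the counts of each library. A quasi-binomial logistic model with the log length ratio as offset was fitted per event in R 4.3.3, with Pearson dispersions raised to at least 1 and moderated with limma 3.58.1, which gave a dispersion shared by all events (2.13 in MCF10A, 2.11 in HMLE TWIST, 2.20 between emetine libraries, 1.84 for the line by treatment term). Tested events had at least 20 reads in every library and at least 10 reads of the rarer form. Benjamini-Hochberg adjustment ran over all tested events. Alternatives were limma on log2 odds (0.5 added to each count), other dispersions, filters, thresholds and memberships, each library left out, and a replicate block. The first value in a cell was taken as replicate 1. The model was also run on simulated counts with the same extra spread in every event. Per the authors' deposited table, 221 and 147 members had FDR under 0.05 and a rise of at least 0.1 in MCF10A and HMLE TWIST, and all own calls had an FDR under 0.05.

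The members, gene lists and named exons (largest rises per line and shared, largest differences under emetine, lowest control levels, deepest uncalled, list examples) were chosen with earlier results of these data known. Some called members are not reported here by name. Exon sequences and frames came from GENCODE 29 transcripts matched by gene, exon length and intron lengths, never by coordinates. Tables were processed separately per line, which may affect levels set across them. With 2 libraries a group, p-values rest on the shared dispersion. Figures were drawn with matplotlib 3.10.9.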

Additional observations from a re-analysis of the deposited data

Results flagged for a closer look

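In 15 members the response to emetine differed between the lines by the line by treatment term of the quasi-binomial model, fitted to 31825 events with all 8 libraries. The term tests a ratio of odds, while the values below are differences of level, which had to reach 0.1 as well. Of the 1962 members tested, 14 had the smaller response in HMLE TWIST (0.714%, where 1.28% of all tested events did) and 1 the larger (0.051%, against 0.606%). By limma 0 members were called, with a smallest adjusted p of 0.197 over all events, and 12 of the 15 had an unadjusted limma p under 0.05, as did 4058 of all events. The members were chosen by their control levels, which enter this term.

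NADK, the cytosolic NAD kinase, had the largest difference of level change among these 15. Members that the term did not call had larger ones, such as FKBP14 at -0.358 and a DECR2 exon at 0.299. Its 144-base exon was at 0.0247 and 0.0251 in the MCF10A control libraries and 0.271 and 0.307 under emetine, and at 0.0342 and 0.0331 in those of HMLE TWIST and 0.106 and 0.0531 under emetine, so the HMLE TWIST change minus the MCF10A change was -0.218. A second NADK exon, of 104 bases and ending at the same base, gave -0.158, and the pair shares junction reads. SEC24D, a coat protein of vesicles leaving the endoplasmic reticulum, gave -0.179 with rises of 0.319 and 0.140. The SEC24D term had a quasi-binomial adjusted p of 0.0378, but of 0.0936 with the larger of own and shared dispersion. ARPC4, a subunit of the Arp2/3 actin complex, gave -0.177 with changes of 0.212 and 0.0342.

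WDR62 gave -0.162 and TSEN15, a subunit of the tRNA splicing endonuclease, -0.140. POLDIP3 gave -0.115 and SRSF11, an SR-related splicing factor, -0.111. USP39 gave -0.107, INTS9, an Integrator subunit, -0.103, and HNRNPC -0.102. MTFR1L gave -0.101.

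DDX50, an RNA helicase, was the 1 member called for a larger response in HMLE TWIST, out of 10 whose change of level was at least 0.1 larger there. Its 54-base exon was at 0.0303 and 0.0400 in the MCF10A control libraries and 0.113 and 0.105 under emetine, and at 0.00328 and 0.00487 in those of HMLE TWIST and 0.204 and 0.199 under emetine. The DDX50 changes of 0.0738 and 0.197 differed by 0.123 (quasi-binomial adjusted p 0.00134, limma adjusted p 0.197).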

How the results depend on the processing

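Counts of members called higher in MCF10A, in HMLE TWIST and in both lines (219, 147 and 119) moved mainly with the size of change and the length correction. They were 434, 313 and 272 for a change of at least 0.05, 72, 40 and 26 for at least 0.2, and 390, 275 and 234 without the length correction. With a control level of at most 0.03 they were 133, 82 and 65, and with at most 0.10 they were 335, 233 and 185. Without 1 library they were 208 to 224, 125 to 168 and 101 to 128, and with limma 213, 147 and 118.

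The 68 differences between the lines under emetine and the 15 differences of response became 0 and 0 with limma, 197 and 40 at 0.05, 12 and 1 at 0.2, 151 and 35 without the length correction, 37 and 8 at a control level of 0.03, and 117 and 33 at 0.10. Without 1 library they were 62 to 79 and 6 to 17, the latter 7 without MCF10A control replicate 2, 9 and 6 without HMLE TWIST control replicates 1 and 2, and 8 without HMLE TWIST emetine replicate 2. With the larger of own and shared dispersion they were 64 and 7, and with the moderated dispersion of each event 68 and 12. In these counts the cause was not tested.

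For frame classes, alternatives were chosen after seeing the data. Exons with a stop at least 50 bases before the last junction numbered 295 in MCF10A and 212 in HMLE TWIST without the length correction, 319 and 238 at 0.05, and 64 and 33 at 0.2, and without 1 library 161 to 181 and 101 to 127. Those with a nearer stop numbered 7 in MCF10A without the length correction and 7 and 2 at 0.05, and 0 in HMLE TWIST at 0.2, and without 1 library 0 to 1 and 1 to 1. Frame-keeping ones numbered 12 and 11, 16 and 14, and 1 and 2, and without 1 library 5 to 8 and 3 to 5.

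With a replicate block the counts were 219, 147, 119, 68 and 17, and by frame class 173, 116, 0, 1, 6 and 4. The replicates share only a number, since differences between the listed replicates correlated at 0.0395 in MCF10A and 0.0268 in HMLE TWIST between treatments, and the order within a table cell stands in for the number. Of the values of named exons against the controls under each alternative, 983 kept their side of the threshold, 14 lost it and 15 gained it, and 0 changed direction. Where leaving out a library left 1 in a group, that library was assumed to vary like the others. In simulated data the model recovered 76.1%, 66.1%, 61.1% and 50.9% of shifts of at least 0.1 in MCF10A, in HMLE TWIST, between emetine libraries and in the line by treatment term. These counts were drawn with the same extra spread in every event, as the model assumes, so they cannot check that assumption. The shifts were put on events of any level, not on the rare exons, and the simulated levels had no length correction.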

Other observations

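Of the 12 genes with at least 5 member events, 3 had a called member, where 15.4% of all 1432 member genes did. These shares of genes are not directly comparable, since 1054 of the 1432 genes had only 1 event that could be called. By event, ANXA2 had 1 of 9 called in each line and CCNB1IP1 1 of 5. HNRNPC had 2 of 7 called in MCF10A and 1 of 7 in HMLE TWIST. The remaining genes of the 12 had 0 called in either line. Among all members, 11.1% were called in MCF10A and 7.45% in HMLE TWIST. HDLBP, an RNA-binding protein, had 9 events, none higher by the adjusted p in either line, with changes of -0.00891 to 0.000679 in MCF10A, and of -0.0217 to 0.00331 in HMLE TWIST. EEF1D, a subunit of the elongation factor that recharges eEF1A, had 8 events, of which 6 in MCF10A and 5 in HMLE TWIST were higher by the adjusted p, and 0 passed the size threshold. ANXA2, a calcium-dependent membrane-binding protein, had 9 events, of which 1 was called in each line, with rises of up to 0.226 and 0.120. HNRNPC had 7 events in 5 exons, and all 7 were higher by the adjusted p in both lines. Events of 1 gene share junction reads, so they are not independent.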
